A study of Homo sapiens with 18 samples.

Results

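The alpha- and beta-tubulin genes supply the building block of microtubules, and 10 of them were followed here across 2 breast cancer cell lines. They were selected by name from the 60656 gene rows of the deposited table as TUBA1A, TUBA1B, TUBA1C and TUBA3E for alpha-tubulin and TUBB, TUBB2A, TUBB2B, TUBB3, TUBB4B and TUBB6 for beta-tubulin. The set was chosen with the readout known, because TUBA3E had been singled out for the size of its rise in ZR-75-1. For that reason, the values of TUBA3E against DMSO in ZR-75-1, and the difference between the lines in that gene, are given as a description with no test. Of the 10 genes, 9 had a count in at least 1 of the 18 libraries.

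CAMA-1 and ZR-75-1 are established oestrogen receptor-positive breast cancer lines, used here as the parental, wild-type cultures. Each was treated for 5 days with 500 nM abemaciclib, with 500 nM palbociclib or with the solvent DMSO, and 3 biological replicates were sequenced in each of the 6 groups. Abemaciclib and palbociclib inhibit the cyclin-dependent kinases CDK4 and CDK6, which drive cells from G1 into S phase. The assay was 3′-end messenger RNA sequencing (QuantSeq), in which reads pile up near the end of each transcript. Each line stands for 1 tumour only, and in bulk RNA fewer cells in a state and less RNA per cell cannot be told apart.

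Alpha- and beta-tubulin form a dimer that polymerises into microtubules, the tracks of the cell and the fibres of the mitotic spindle. Humans carry several genes for each partner, and the proteins they encode differ mostly in their acidic tails, which face outwards from the microtubule and carry most of its modifications. TUBA1B, TUBA1C, TUBB and TUBB4B are the common isotypes of dividing cells, TUBA1A, TUBB2A, TUBB2B and TUBB3 are prominent in neurons, and the TUBA3 genes are best known from testis. Cells also adjust tubulin messenger RNA to the amount of free dimer, through TTC5, SCAPER and the CCR4-NOT deadenylase, and beta-tubulin is the target of the taxanes used in breast cancer.

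The likeness of these genes decides how far a short read can tell them apart, so sequences of the closest copies are shown first. The last 60 coding bases, stop codon included, encode the tail. TUBA3E is given beside TUBA3D, its near-identical partner, with capitals where a base differs from TUBA3D in an alignment.
TUBA3D: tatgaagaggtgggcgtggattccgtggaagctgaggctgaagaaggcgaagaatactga
TUBA3E: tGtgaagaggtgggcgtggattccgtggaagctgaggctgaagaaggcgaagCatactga
TUBA3E shared 58 of these bases with TUBA3D. The beta genes are given with capitals where a base differs from TUBB.
TUBB: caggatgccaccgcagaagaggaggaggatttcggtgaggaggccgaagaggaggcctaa
TUBB4B: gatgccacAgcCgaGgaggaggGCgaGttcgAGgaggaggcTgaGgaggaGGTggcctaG
TUBB2A: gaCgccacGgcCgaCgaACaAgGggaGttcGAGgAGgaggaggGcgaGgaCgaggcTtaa
TUBB2B: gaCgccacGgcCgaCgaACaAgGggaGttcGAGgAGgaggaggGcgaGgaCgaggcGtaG
TUBB4B shared 46 of these bases with TUBB, TUBB2A shared 42 and TUBB2B shared 41.

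Over the whole coding sequence, TUBA3E and TUBA3D differed at 16 of 1353 bases, an identity of 98.8%, and over the last 500 bases of the transcript they were 98.0% identical. TUBA3C, the remaining TUBA3 gene, was 92.5% identical to TUBA3E over that end. TUBB2A and TUBB2B were 98.1% identical in coding sequence but only 46.0% identical over the last 500 bases. TUBA1A and TUBA1B were 97.2% identical in coding sequence and 70.0% over the end. Coding sequence and transcript ends thus gave different orders of likeness, and it is the ends that 3′ reads sample.

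To put a size on this, every stretch of 100 bases, the length of a read, in the last 500 bases of the main transcript was searched for an exact copy elsewhere in hg38 or in a transcript of another tubulin gene. Among these stretches, TUBA1C, TUBB, TUBB2B and TUBB6 had none with a copy. The share was 7.98% for TUBA1A, 11.0% for TUBB4B, 11.7% for TUBB3 and 13.7% for TUBA3E, whose copies lay in TUBA3D. It was 29.7% for TUBA1B, with copies in TUBA1A, in TUBA1C and in the pseudogene TUBAP2. The largest share was in TUBB2A, at 49.9%, with all 200 copied stretches found in TUBB2B and some also in TUBB3 and TUBB4B. The handling of reads with several alignments is not given in the sources used here, so TUBB2A and TUBB2B, TUBA1A and TUBA1B, and TUBA3E and TUBA3D are uncertain to this extent.

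**Figure D1:**
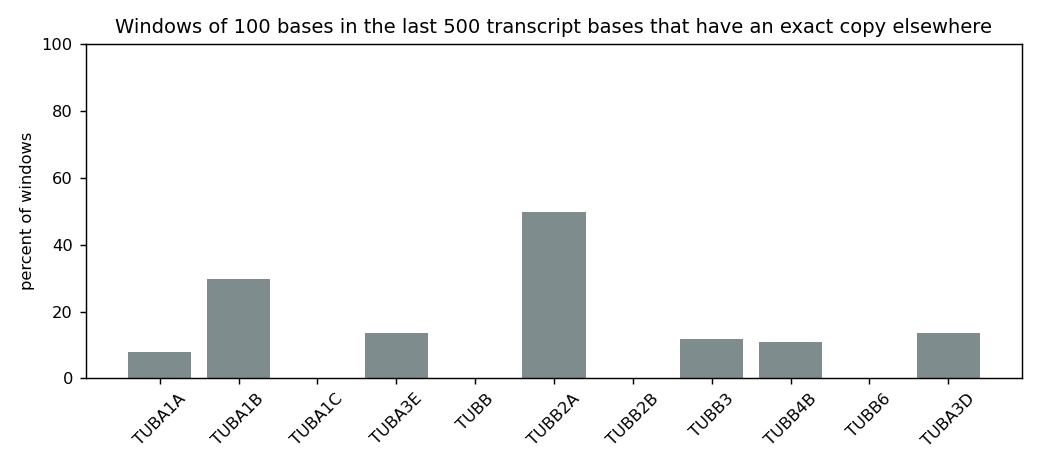
Bars give, for each gene on the horizontal axis, the percent of stretches of 100 bases in the last 500 transcript bases that have an exact copy elsewhere in the genome or in another tubulin transcript. TUBB2A stands highest at 49.9%, TUBA1B follows at 29.7%, and TUBA1C, TUBB, TUBB2B and TUBB6 are at 0.

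The 18 libraries held between 2308442 and 4146549 counts, and 3 counts, taken as the floor of detection per library, stood for 0.689 to 1.29 CPM. CPM expresses the count of a gene relative to the scaled total of its library, and in a 3′-end assay it is not divided by gene length. Replicates of a group correlated at 0.974 to 0.982 over genes on the log2 CPM scale. The share of counts on mitochondrial genes was higher in treated CAMA-1 cells, at 23.4–26.1% with abemaciclib and 22.9–24.9% with palbociclib against 14.8–16.6% in DMSO. In ZR-75-1 it lay between 17.3% and 22.6% in all groups. All 8 markers of luminal breast epithelium were detected in both lines, with a summed level of 4711–5022 CPM in DMSO, 6360–6484 with abemaciclib and 6681–6748 with palbociclib in CAMA-1, and of 6272–6520, 7347–7542 and 5767–5987 CPM in ZR-75-1. Each treated range was apart from that of DMSO, above it in 3 comparisons and below it with palbociclib in ZR-75-1. The 8 markers did not move alike. In CAMA-1, 4 rose and 1, GATA3, fell with each drug. In ZR-75-1, 5 rose and 1, KRT18, fell with abemaciclib, and 1 rose and 3 fell with palbociclib. Among all genes, between 13.4% and 20.3% passed in each direction in these comparisons. Of the other cell types, the basal keratin KRT5, the T cell gene CD3E, the neuronal gene RBFOX3, the fibroblast genes COL1A2, DCN and PDGFRB and the endothelial genes CDH5 and KDR were at 0 throughout. The summed level was at most 11.6 CPM for basal markers, 33.9 for fibroblast, 11.5 for immune, 1.34 for endothelial and 3.99 for neuronal markers. The basal sum also moved with treatment, from 1.15–3.51 to 9.79–11.6 and 6.12–6.83 CPM in CAMA-1 and from 5.53–11.5 to 0.664–1.97 and 2.24–5.01 CPM in ZR-75-1. In ZR-75-1 the immune sum was higher with palbociclib (0.982–4.91 in DMSO, 5.89–11.5 CPM), and the neuronal sum was lower with abemaciclib (2.95–3.99 in DMSO, 0.395–2.08 CPM). LYZ, at a mean of 14.8 counts in that line, had a log2 fold change of 1.54 with palbociclib, given as a description. Fibroblast sums overlapped between groups of a line, but in CAMA-1 COL1A1 was -0.58 with abemaciclib (adjusted p of 0.047) and -0.53 with palbociclib (adjusted p of 0.0675). COL3A1, which passed the filter there through its treated libraries, was at 2.24 and 2.12, also a description. The part of these marker shifts in the results was not tested. With mitochondrial genes left out of the totals, no call of a member changed.

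TUBA1B, the main alpha-tubulin gene of dividing cells, fell with both drugs in both lines. The gene lies at chr12:49127782-49131397 (hg38) on the minus strand. In CAMA-1 its level was 1894, 1837 and 2107 CPM in the DMSO libraries, 1002, 987 and 925 CPM with abemaciclib and 1005, 983 and 1122 CPM with palbociclib. In ZR-75-1 the corresponding levels were 2602, 2603 and 2558 CPM, then 907, 968 and 959 CPM, then 1589, 1759 and 1758 CPM. No treated library reached the lowest DMSO library of its line. The fitted log2 fold change against DMSO was -1.03 (± 0.06 SE, edgeR adjusted p of 8.51e-18) for abemaciclib and -0.94 (± 0.06 SE, adjusted p of 2.12e-16) for palbociclib in CAMA-1. In ZR-75-1 it was -1.46 (± 0.07 SE, adjusted p of 2.86e-26) and -0.61 (± 0.06 SE, adjusted p of 2.38e-11). The annotated antisense gene TUBA1B-AS1 covers the whole 3′ end of TUBA1B, and its row held at most 4 counts in a library. The use of strand in the counting is not given in the sources used here.

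TUBA1C, a close relative at chr12:49188736-49274600 on the plus strand, fell in ZR-75-1 from 925, 932 and 856 CPM in DMSO to 465, 474 and 472 CPM with abemaciclib and to 563, 600.2 and 619 CPM with palbociclib. The treated libraries all lay under the DMSO libraries. The fitted log2 changes were -0.95 (± 0.07 SE, adjusted p of 9.83e-18) and -0.61 (± 0.07 SE, adjusted p of 7.14e-11). In CAMA-1 the level was 737, 702 and 842 CPM in DMSO, 774, 690.5 and 683 CPM with abemaciclib and 646, 577 and 669 CPM with palbociclib. Here the abemaciclib libraries overlapped those of DMSO, and the palbociclib libraries lay below them. The log2 fold change was -0.12 for abemaciclib (± 0.07 SE, adjusted p of 0.172) and -0.30 for palbociclib (± 0.07 SE, adjusted p of 4.41e-04), so only the second passed the threshold.

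TUBA1A, an alpha gene best known from developing neurons, went the opposite way in CAMA-1. Its locus, chr12:49184686-49189080 on the minus strand, overlaps the start of the TUBA1C locus on the opposite strand. In CAMA-1 its reads numbered 16, 9 and 12 without drug, 274, 137 and 174 under abemaciclib and 192, 149 and 166 under palbociclib. As levels, these were 3.63 ± 1.29, 61.9 ± 9.48 and 48.4 ± 7.28 CPM (mean ± SD, n = 3). The groups were far apart, and the gene moved from just above the floor to a moderate level. The log2 fold change was 4.09 (± 0.21 SE, adjusted p of 9.38e-20) for abemaciclib and 3.72 (± 0.22 SE, adjusted p of 6.32e-18) for palbociclib, fitted folds of 17.0 and 13.2. TUBA1B, the gene that holds the copies of TUBA1A stretches, fell in the same libraries. In ZR-75-1, TUBA1A stood at 218, 216 and 186 CPM in DMSO, 175, 193 and 193 CPM with abemaciclib and 194, 199 and 207 CPM with palbociclib, already above every CAMA-1 library. These groups overlapped, and the log2 fold changes of -0.15 (95% interval -0.31 to 0.01, adjusted p of 0.14) and -0.05 (-0.21 to 0.10, adjusted p of 0.668) did not pass the threshold.

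**Figure D2:**
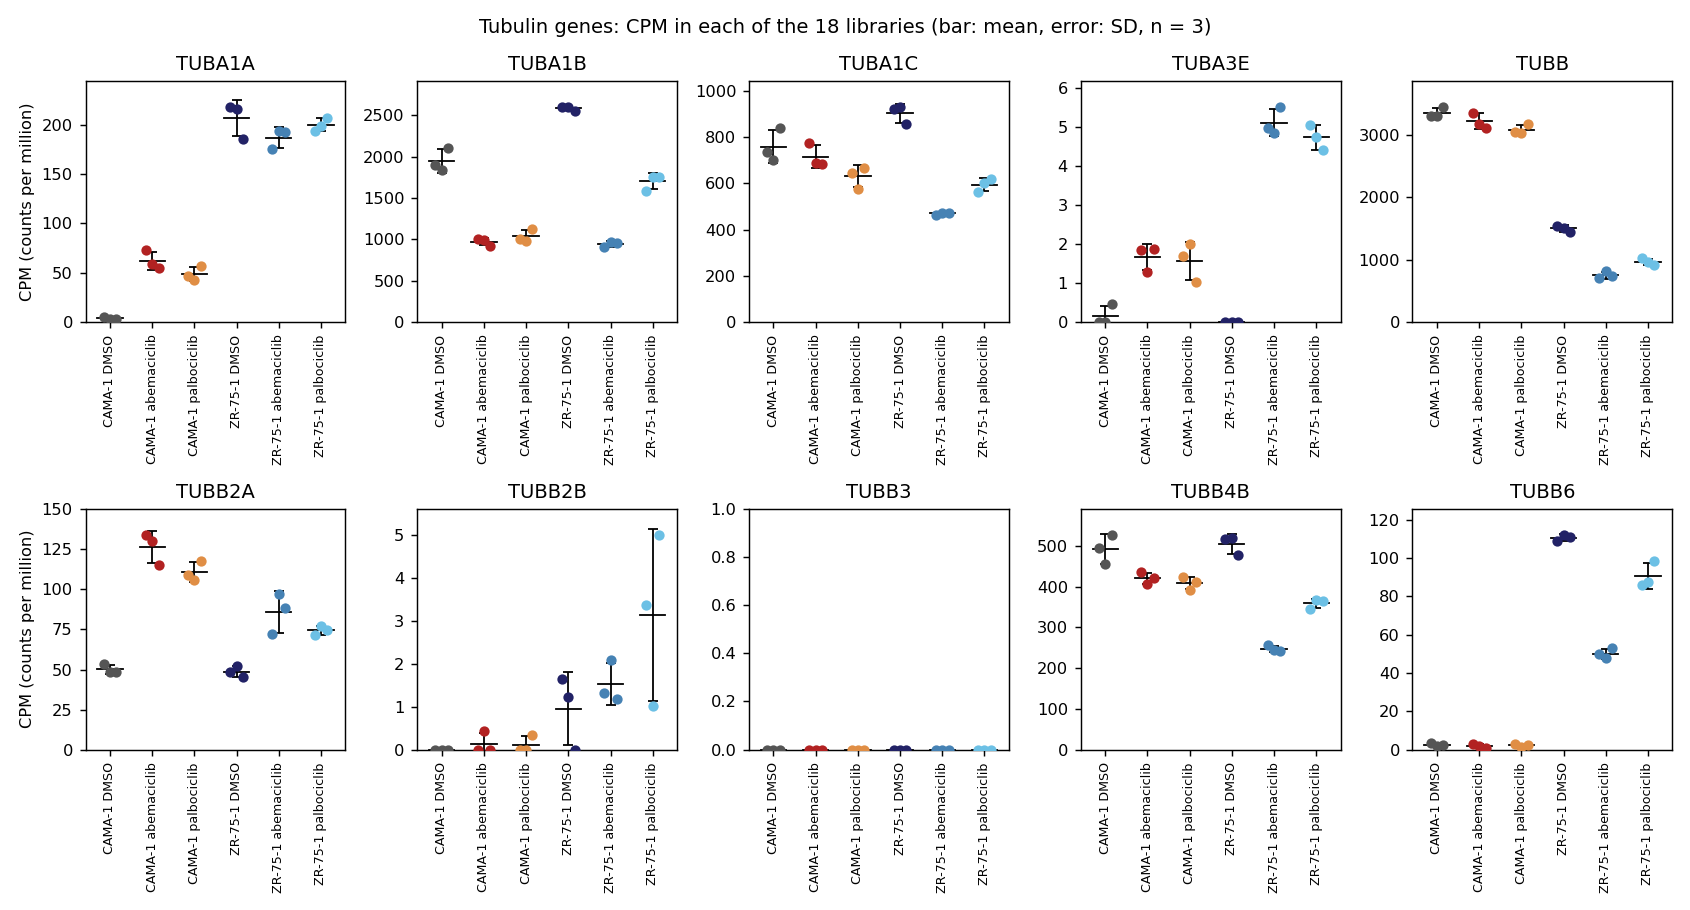
Each panel plots 1 tubulin gene, with the level in CPM on a linear vertical axis from 0 and the 6 groups on the horizontal axis. Points are libraries, the horizontal bar is the mean and the error bar the SD (n = 3). TUBA1B is lower with both drugs in both lines, TUBA1A is higher with both drugs in CAMA-1 and overlaps DMSO in ZR-75-1, and TUBB2A is higher in all 4 treated groups.

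TUBA3E was the gene that directed attention to this family, with the highest fitted rise of all genes under abemaciclib in ZR-75-1 and the second highest under palbociclib. It encodes an alpha-tubulin of the TUBA3 group and lies at chr2:130191745-130198439 on the minus strand, 1016 bases from MZT2B, a subunit of the gamma-tubulin ring complex. No read was counted in the 3 ZR-75-1 DMSO libraries. With abemaciclib the counts were 15, 14 and 14, and with palbociclib 18, 14 and 15. The treated libraries therefore stood at 5.12 ± 0.35 and 4.74 ± 0.32 CPM (SD, n = 3), at least 5.23-fold and 4.84-fold higher than the floor of 3 counts per library in DMSO. Between abemaciclib and palbociclib the fitted log2 difference was 0.10 (95% interval -0.75 to 0.96). This is a description, because the gene entered the fit only through its treated libraries. In CAMA-1 TUBA3E had 0, 0 and 2 counts in DMSO, 7, 3 and 6 with abemaciclib and 7, 7 and 3 with palbociclib. Relative to depth, the summed counts of the abemaciclib libraries were 9.00 times those of DMSO (95% interval 2.11 to 80.6), and those of palbociclib 8.39 times (1.99 to 74.8), by exact binomial intervals that cover counting error only. The gene was too low in CAMA-1 to pass the filter.

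TUBA3D, the near copy of TUBA3E at chr2:131476119-131482934 on the plus strand, had 4, 0 and 4 counts in the ZR-75-1 DMSO libraries, 28, 28 and 29 with abemaciclib and 24, 23 and 38 with palbociclib. Its fitted log2 changes were 3.47 and 3.24, given as a description. TUBA3D was looked at as the near copy of TUBA3E, and it passed the filter on low counts only through its treated libraries. These are not independent of TUBA3E as far as reads are shared. Together the pair had 8 counts over the DMSO libraries, 128 over the abemaciclib libraries and 132 over the palbociclib libraries, 17.5 and 15.3 times the DMSO level per depth. These sums hold the TUBA3E counts that chose the gene and are given as a description. TUBA3E took 32.6–34.9% of the counts of the pair with abemaciclib and 28.3–42.9% with palbociclib. In CAMA-1 the order was the other way, with TUBA3D at 0 to 2 counts in every library and TUBA3E ahead of it wherever either had a count. TUBA3C was at 0 in all 18 libraries, at or under a limit of 3 counts per library. MZT2A lies around TUBA3D on the opposite strand, and its log2 fold change in ZR-75-1 was -0.14 (adjusted p of 0.307) with abemaciclib and -0.11 (adjusted p of 0.448) with palbociclib. For MZT2B the values were 0.06 (adjusted p of 0.603) and 0.09 (adjusted p of 0.435), so neither neighbour passed the test in that line. In CAMA-1 both fell, MZT2A by more (-0.79 and -0.55) than MZT2B (-0.24 and -0.19).

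**Figure D3:**
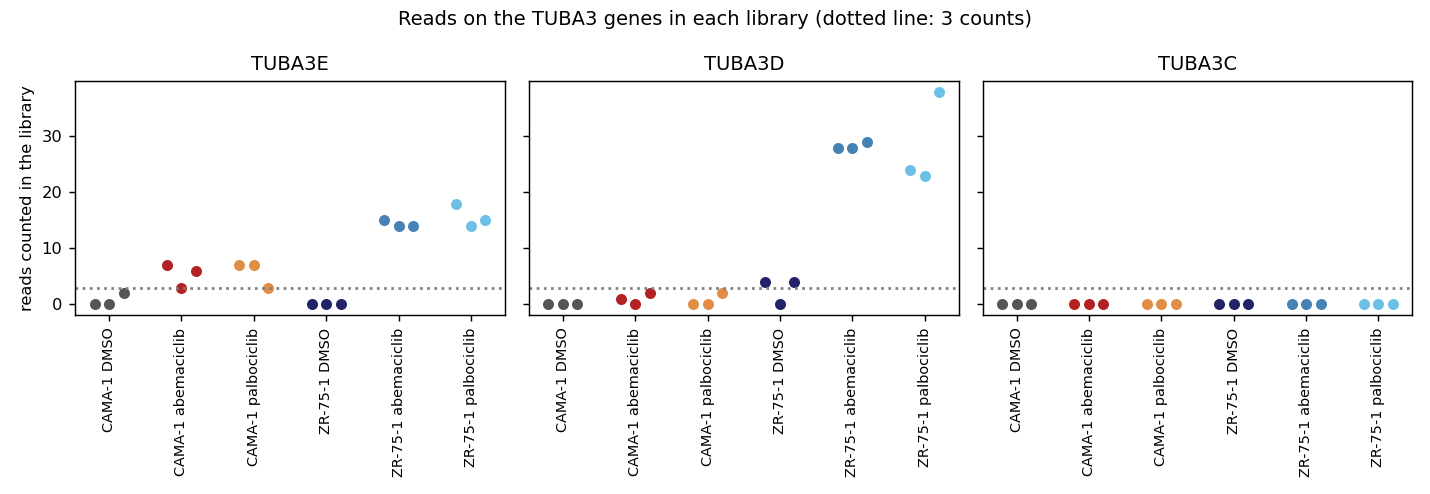
Each point is the number of reads counted on TUBA3E, TUBA3D or TUBA3C in 1 library, with the 6 groups on the horizontal axis and a dotted line at 3 counts. In ZR-75-1, TUBA3E goes from 0 in all DMSO libraries to 14–18 counts in treated ones, TUBA3D from 0–4 to 23–38, and TUBA3C stays at 0.

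Because TUBA3E and TUBA3D were both higher in treated ZR-75-1 cells, their promoters are shown, from 250 bases before to 50 after the RefSeq start (GRCh38.p14). The TUBA3E window is chr2:130198390-130198689 on the minus strand and the TUBA3D window chr2:131475869-131476168 on the plus strand. Capitals mark the letters CCAAT read on the strand printed, the core of the box bound by the factor NF-Y.
TUBA3E: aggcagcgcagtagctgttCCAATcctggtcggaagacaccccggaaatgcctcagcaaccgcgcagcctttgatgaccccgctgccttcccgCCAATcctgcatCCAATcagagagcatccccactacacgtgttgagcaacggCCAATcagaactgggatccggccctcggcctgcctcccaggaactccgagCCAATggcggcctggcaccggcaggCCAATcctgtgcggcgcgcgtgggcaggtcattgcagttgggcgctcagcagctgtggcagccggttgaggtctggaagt
TUBA3D: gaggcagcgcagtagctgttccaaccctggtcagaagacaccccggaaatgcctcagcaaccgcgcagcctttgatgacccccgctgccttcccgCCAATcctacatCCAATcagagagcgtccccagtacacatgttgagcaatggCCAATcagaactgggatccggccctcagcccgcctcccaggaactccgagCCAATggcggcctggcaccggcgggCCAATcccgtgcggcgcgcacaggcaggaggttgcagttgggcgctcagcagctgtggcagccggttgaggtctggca
On either strand the letters occurred 6 times in TUBA3E and 5 times in TUBA3D. Of 35116 RefSeq promoters of this length, 34.6% held CCAAT at least once, 0.359% at least 5 times and 0.122% at least 6 times. The windows were 92.7% identical to each other, so the counts are not independent, and the TUBA3C promoter, 70.2% identical to that of TUBA3E, also held 5. A match is a description of letters and not a bound site. The CHR element TTTGAA of cell cycle promoters, found in 15.2% of promoters, had no match in either window on either strand. Among members that fell in ZR-75-1, TUBA1B, TUBB and TUBB6 also had no match, while TUBB4B and TUBA1C had matches. TUBB4B held CCAAT 3 times, and TUBB2A, which rose, did not hold it. The part of any motif in these changes was not tested.

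TUBB, the main beta-tubulin gene of dividing cells, fell in ZR-75-1, while in CAMA-1 only the palbociclib change passed the test. It lies at chr6:30717435-30725538 on the plus strand. In ZR-75-1 the level was 1543, 1515 and 1446 CPM in DMSO, 703, 813 and 737 CPM with abemaciclib and 1020, 957 and 919.5 CPM with palbociclib. The groups did not overlap, and the fitted log2 changes were -1.01 (± 0.07 SE, adjusted p of 9.40e-19) and -0.64 (± 0.07 SE, adjusted p of 1.73e-11). In CAMA-1 the level was 3310, 3302 and 3454 CPM in DMSO, 3363, 3183 and 3118 CPM with abemaciclib and 3048, 3033 and 3183 CPM with palbociclib. Abemaciclib libraries overlapped those of DMSO, and palbociclib libraries lay just below them. The fitted log2 changes were -0.09 (95% interval -0.19 to 0.01, adjusted p of 0.173) and -0.15 (± 0.05 SE, adjusted p of 0.0196). The second is small, and it did not pass without palbociclib replicate 1 (-0.14, adjusted p of 0.0851), without palbociclib replicate 2 (-0.14, adjusted p of 0.063) or in the fit of all 18 libraries (-0.12, adjusted p of 0.117). The processed pseudogene TUBBP1, looked at after its values were seen, held 3.08% to 4.34% of the count of TUBB in every library.

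TUBB4B, a broadly expressed beta gene also used in cilia, fell with both drugs in both lines. It lies at chr9:137241287-137243707 on the plus strand, and 24.8% of its 3′ end is overlapped by FAM166A on the opposite strand. In ZR-75-1 it went from 517, 519 and 476 CPM in DMSO to 256, 245 and 242 CPM with abemaciclib and 345, 367 and 364 CPM with palbociclib. In CAMA-1 it went from 494, 455 and 527 CPM to 434, 407 and 420.4 CPM and to 422, 392 and 412 CPM. Treated and DMSO libraries were apart in both lines, by far less in CAMA-1. The fitted log2 changes were -1.03 (± 0.07 SE, adjusted p of 3.61e-18) and -0.50 (± 0.07 SE, adjusted p of 6.71e-08) for ZR-75-1, then -0.26 (± 0.07 SE, adjusted p of 0.00173) and -0.30 (± 0.07 SE, adjusted p of 3.18e-04) in CAMA-1.

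TUBB2A, a beta gene prominent in neurons at chr6:3153497-3157544, rose with both drugs in both lines. CAMA-1 had 53.3, 48.2 and 48.7 CPM in DMSO, 134, 130.02 and 115 CPM with abemaciclib and 109, 106 and 118 CPM with palbociclib. ZR-75-1 had 48.5, 52.5 and 45.3 CPM, then 72.0, 97.3 and 88.4 CPM, then 71.5, 77.0 and 74.8 CPM. Every treated library lay above every DMSO library, and the DMSO levels of the lines overlapped. The fitted log2 changes were 1.31 (± 0.10 SE, adjusted p of 3.27e-14) and 1.11 (± 0.10 SE, adjusted p of 4.10e-12) for CAMA-1, then 0.81 (± 0.12 SE, adjusted p of 1.54e-07) and 0.60 (± 0.12 SE, adjusted p of 6.78e-05) in ZR-75-1. TUBB2B, its neighbour at chr6:3223324-3231730, held at most 1 count in the CAMA-1 libraries. In ZR-75-1 it had 5, 4 and 0 counts in DMSO, 4, 6 and 3 with abemaciclib and 12, 3 and 17 with palbociclib, which overlapped and were below the filter on low counts. With that filter off, its log2 fold change in ZR-75-1 was 0.65 with abemaciclib (adjusted p of 0.622) and 1.67 with palbociclib (adjusted p of 0.102). Without palbociclib replicate 2, the library with 3 counts, the gene passed the filter through the other palbociclib libraries, where it held 12 and 17 counts. The palbociclib value was then 2.05, given as a description, and no call is drawn from it.

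TUBB6, a divergent beta gene at chr18:12307669-12344320, belonged to ZR-75-1 as far as counts went. It had 109, 112 and 111 CPM in DMSO, 49.8, 47.6 and 52.9 CPM with abemaciclib and 85.8, 87.5 and 98.4 CPM with palbociclib in that line. All treated libraries were below DMSO, and abemaciclib was below palbociclib. The fitted log2 changes were -1.15 (± 0.11 SE, adjusted p of 3.65e-13) and -0.29 (± 0.10 SE, adjusted p of 0.0213), and the second no longer passed in a fit of all 18 libraries (adjusted p of 0.0581) or with low genes kept in (adjusted p of 0.0557). Nor did it pass without DMSO replicate 2 (adjusted p of 0.062), without palbociclib replicate 1 (adjusted p of 0.0769) or without palbociclib replicate 2 (adjusted p of 0.0703). In CAMA-1 it held 3 to 13 counts per library in all groups and was below the filter. In the fit of all 18 libraries, which it entered through its level in ZR-75-1, its CAMA-1 values were -0.34 (adjusted p of 0.58) and -0.13 (adjusted p of 0.847). TUBB3, a neuronal isotype that tumours can also express, was listed at 0 in all 18 libraries. A readthrough gene on the same strand, ENSG00000198211, covers 99.0% of its 3′ end and was also listed at 0. Reads that fall on both features may not have been assigned to either, a setting that is not given, so the 0 does not show that TUBB3 was silent.

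Over the set, the 6 members that could be tested in CAMA-1 gave 2 higher and 2 lower with abemaciclib, and 2 higher and 4 lower with palbociclib. Among all 11053 genes tested, 20.3% were higher and 20.1% lower with abemaciclib, and 18.4% were higher and 18.7% lower with palbociclib. In ZR-75-1, 7 members were tested, and with each drug 1 rose and 5 fell, where 17.9% of 11017 genes rose and 18.3% fell with abemaciclib and 14.5% rose and 13.4% fell with palbociclib. TUBA3E is outside these counts. The median log2 fold change of the members tested was -0.10 and -0.23 for the CAMA-1 comparisons with abemaciclib and palbociclib, against -1.01 and -0.50 for those of ZR-75-1, beside medians between -0.01 and 0.01 over all genes. The drugs were compared with the same DMSO libraries, so their results are not independent. Without mitochondrial genes, TUBA1B in CAMA-1 had log2 fold changes of -1.03 and -0.94, and TUBA1A 4.09 and 3.72.

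**Figure D4:**
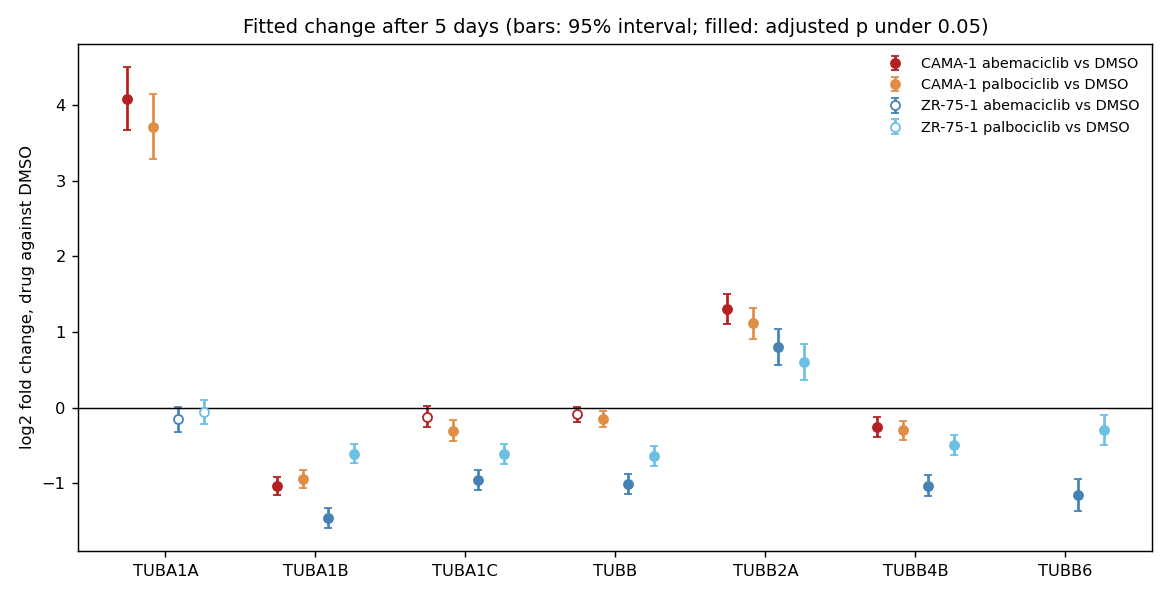
The vertical axis gives the fitted log2 fold change of each drug against DMSO and the horizontal axis the 7 members tested in at least 1 line, apart from TUBA3E. Bars are 95% intervals, filled points have an adjusted p under 0.05. TUBA1A stands at 4.09 and 3.72 in CAMA-1 and close to 0 in ZR-75-1, TUBB2A is above 0 in all 4 comparisons and TUBA1B below 0 in all 4.

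The drugs differed from each other in ZR-75-1. Of 8 members tested, TUBA1B, TUBA1C, TUBB, TUBB4B and TUBB6 were lower with abemaciclib than with palbociclib, and none was higher, where 7.94% of all genes were lower and 5.23% higher. The 8 include TUBA3E, which entered only through its treated libraries and was not called. The log2 difference was -0.85 (± 0.06 SE, adjusted p of 7.74e-16) for TUBA1B and -0.86 (± 0.11 SE, adjusted p of 1.90e-08) for TUBB6. It was -0.54 for TUBB4B (± 0.07 SE, adjusted p of 6.34e-08), -0.37 for TUBB (± 0.07 SE, adjusted p of 5.04e-05) and -0.34 for TUBA1C (± 0.07 SE, adjusted p of 1.84e-04). TUBB2A, at 0.20 (95% interval -0.02 to 0.42, adjusted p of 0.269), and TUBA1A, at -0.10 (-0.26 to 0.06, adjusted p of 0.494), did not pass. In CAMA-1 edgeR called 0 of 6 members between the drugs, DESeq2 also 0, and 3 had an unadjusted p under 0.05, where 0.796% of genes were higher and 1.53% lower. The widest of these intervals was that of TUBA1A, at 0.37 (95% interval 0.10 to 0.64, adjusted p of 0.192), and the interval of TUBA1B was -0.22 to 0.03. Both drugs were given at 500 nM, and equal concentration does not mean equal inhibition.

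Next, the 2 lines were set against each other in 1 fit of all libraries, by subtracting the CAMA-1 response to a drug from the ZR-75-1 response on the log2 scale. With abemaciclib 6 of 7 members had a more negative response in ZR-75-1 and 0 a more positive one, where 10.0% and 8.19% of 11987 genes did. The difference was -4.27 for TUBA1A (± 0.22 SE, adjusted p of 1.36e-24), which passed the test against DMSO only in CAMA-1, and -0.94 for TUBB (± 0.09 SE, adjusted p of 1.20e-13). It was -0.86 for TUBA1C, -0.80 for TUBB4B, -0.52 for TUBB2A and -0.45 for TUBA1B, with adjusted p of 3.27e-10, 2.71e-09, 0.0131 and 1.05e-04. TUBB6 did not pass (-0.81, 95% interval -1.70 to 0.08, adjusted p of 0.231), and it entered this fit only through its level in ZR-75-1. With palbociclib 4 members had a more negative response and 1 a more positive one, where 10.3% and 10.0% of genes did. TUBA1A again differed most (-3.80, SE 0.22, adjusted p of 1.12e-21), followed by TUBB2A (-0.54, adjusted p of 0.00974), TUBB (-0.52, adjusted p of 3.34e-06) and TUBA1C (-0.34, adjusted p of 0.0085). Leaving out any of 4 CAMA-1 libraries (DMSO replicates 1 and 2, palbociclib replicates 1 and 3) took TUBA1C to between -0.25 and -0.28 and with an adjusted p over 0.05, and leaving out DMSO replicate 2 of ZR-75-1 did so for TUBB2A (-0.44, adjusted p of 0.0607). TUBA1B turned the other way, with the smaller fall in ZR-75-1 (0.31, SE 0.09, adjusted p of 0.00865), and TUBB4B (-0.22, adjusted p of 0.0961) and TUBB6 (-0.16, adjusted p of 0.85) did not pass. The TUBB2A difference under abemaciclib was the least stable, since leaving out any of 5 libraries took the adjusted p over 0.05 and the difference to between -0.35 and -0.45. These were DMSO replicates 2 and 3 and abemaciclib replicate 2 of CAMA-1, and DMSO replicate 2 and abemaciclib replicate 1 of ZR-75-1.

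The make-up of the tubulin reads changed with these genes. The 10 alpha genes of the family summed to 2751 ± 216 CPM in DMSO in CAMA-1 and to 1874 ± 99.9 and 1799 ± 121 CPM with abemaciclib and palbociclib (SD, n = 3). In ZR-75-1 the sums were 3776 ± 91.9, 1715 ± 40.0 and 2651 ± 131 CPM. The 9 beta genes summed to 3901 ± 119, 3771 ± 146 and 3610.3 ± 93.9 CPM in CAMA-1, where DMSO and abemaciclib overlapped, and to 2170.0 ± 76.5, 1143 ± 65.7 and 1496 ± 32.7 CPM in ZR-75-1. The ratio of beta to alpha reads therefore went from 1.42 ± 0.07 in DMSO to 2.01 ± 0.03 and 2.01 ± 0.09 in CAMA-1, and from 0.575 ± 0.008 to 0.667 ± 0.028 and 0.566 ± 0.041 in ZR-75-1. These are ratios of reads and not of protein, and no test was made on them.

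TUBA1B held 70.7% ± 0.4 of alpha reads in CAMA-1 DMSO, and 51.9% ± 1.2 with abemaciclib and 57.6% ± 1.3 with palbociclib. TUBA1A went from 0.133% ± 0.051 to 3.29% ± 0.33 and 2.68% ± 0.22 of them. In ZR-75-1, where its level did not pass the test, TUBA1A went from 5.47% ± 0.35 to 10.9% ± 0.4 and 7.54% ± 0.20 as the sum around it fell. TUBA3E never exceeded 0.318% of alpha reads in a library. TUBB held 85.1% to 86.7% of beta reads in every CAMA-1 library and 62.7% to 69.4% in ZR-75-1. TUBB2A went from 1.29% ± 0.09 to 3.35% ± 0.18 and 3.07% ± 0.09 of beta reads in CAMA-1 and from 2.24% ± 0.12 to 7.49% ± 0.75 and 4.98% ± 0.27 in ZR-75-1.

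**Figure D5:**
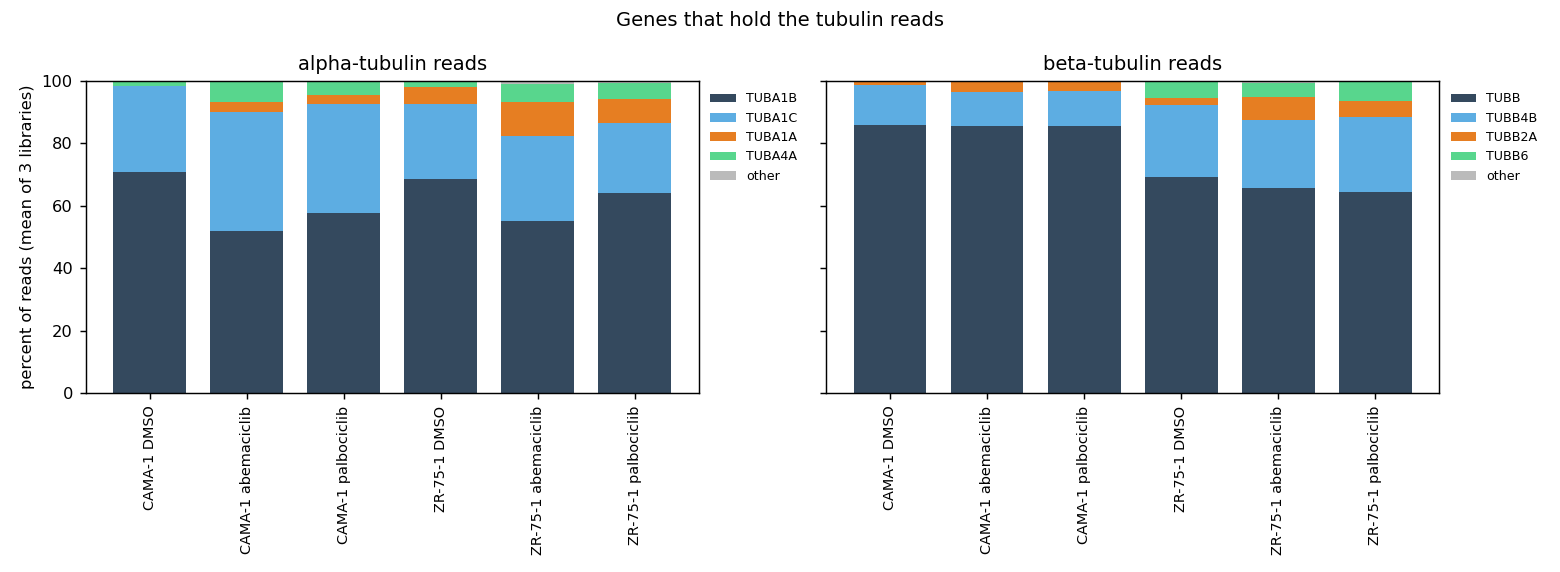
Stacked bars give the mean percent of alpha-tubulin reads (left) and beta-tubulin reads (right) on each gene in the 6 groups, over 3 libraries. The TUBA1B part shrinks from 70.7% to 51.9% and 57.6% in CAMA-1 and from 68.6% to 55.1% and 64.2% in ZR-75-1, while TUBB stays near 85–87% in CAMA-1.

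Among the 13 other genes of the tubulin family, 10 had a count. TUBA4A, an alpha gene of platelets and muscle, rose in all 4 comparisons, by a log2 fold change of 1.55 and 0.94 in CAMA-1 (adjusted p of 9.85e-16 and 3.01e-09) and of 0.35 and 0.90 in ZR-75-1 (adjusted p of 0.00626 and 2.29e-10). Its 3′ end is covered by STK16 on the opposite strand, whose row held 99 to 261 counts in a library against 119 to 511 for TUBA4A. The STK16 mean went from 49.2 CPM in DMSO to 58.1 with abemaciclib and 57.3 with palbociclib in CAMA-1. In ZR-75-1 it went from 36.1 to 45.1 and 48.7 CPM. The part of this overlap in the TUBA4A values was not tested. TUBG1, the gamma-tubulin that nucleates microtubules, fell under both treatments of CAMA-1 (-0.73 and -0.67, adjusted p of 2.10e-09 and 1.11e-08) and with abemaciclib in ZR-75-1 (-0.37, adjusted p of 6.71e-04), and stood at 0.03 with palbociclib (adjusted p of 0.815). TUBD1, TUBE1, TUBG2 and TUBB4A did not pass against DMSO wherever they were tested. TUBA8, TUBAL3 and TUBB1 held at most 4 counts in a library, and TUBA3C, TUBA4B and TUBB8 were at 0. TUBAP2, whose end is at least 95% identical to that of TUBA1B, held at most 2.

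The genes whose pattern was most like that of TUBA1B were sought over the 18 libraries, on log2 CPM with the mean of each line removed, as a description of libraries that share their treatments. They were STMN1 (Pearson r = 0.993), UBE2C (0.991), PRR11 (0.989), CENPE (0.988) and HJURP (0.986). STMN1 encodes stathmin, which binds free tubulin dimers, and UBE2C, CENPE and HJURP serve mitosis and the centromere. For TUBB the list was TMTC1 (0.965), STOM (0.960), TUBA1C (0.955), H1-2 (0.951) and SLC7A11 (0.948), with TUBB4B next at 0.944. For TUBA3E it was AHCYL1 (0.978), LITAF (0.978), PPIF (0.977), SYAP1 (0.968) and SSTR2 (0.965), and with TUBA1B the r of TUBA3E was -0.84. The TUBA3E values hold the rise in ZR-75-1 that chose the gene, and it entered the fit through those treated libraries. Its r values are therefore a description only.

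Further genes of the tubulin pathway are read against the shares of all genes that passed. In CAMA-1 20.3% rose and 20.1% fell with abemaciclib, while 18.4% rose and 18.7% fell under palbociclib. For ZR-75-1 the shares were 17.9% and 18.3%, then 14.5% and 13.4%. Of 20 tested genes for the chaperonin CCT, prefoldin and the tubulin cofactors, 0 rose and 11 fell with abemaciclib in CAMA-1, and 0 rose and 10 fell with palbociclib, so that 9 and 10 did not pass. Among those that fell were the CCT subunits TCP1 (-0.81 and -0.77, adjusted p of 5.30e-09 and 1.24e-08) and CCT5 (-0.80 and -0.71, adjusted p of 5.22e-13 and 1.21e-11). With abemaciclib in ZR-75-1, 3 rose and 6 fell, and with palbociclib 1 rose and 2 fell, the last count being under the share of all genes, with the prefoldin subunit PFDN4 at -1.08 and -0.88 (adjusted p of 2.05e-11 and 5.03e-09). The median log2 fold change of the list was -0.25, -0.29, -0.18 and 0.03. Of 12 genes of the autoregulation pathway, none rose, while 4 and 5 fell under abemaciclib and palbociclib in CAMA-1. In ZR-75-1, 3 fell under each drug, beside shares of 18.3% with abemaciclib and 13.4% with palbociclib among all genes. The list had medians of -0.13, -0.28, -0.17 and -0.20. The receptors of that pathway did not pass, with TTC5 between -0.11 and 0.17 and SCAPER between -0.33 and 0.31, and members that fell include the CCR4-NOT subunits CNOT10 in CAMA-1 (-0.73 and -0.73, adjusted p of 0.00283 and 0.00257) and CNOT6L in ZR-75-1 (-0.77 and -1.04, adjusted p of 1.16e-05 and 3.83e-08).

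The enzymes that modify tubulin passed the test no more often than the share of all genes in CAMA-1. There, of 16 tested, 2 rose with each drug, VASH2 and TTLL1, while 1 and 2 fell. The glutamylase TTLL1 had log2 fold changes of 1.17 and 1.47 (adjusted p of 0.00513 and 3.44e-04). VASH2, which removes the terminal tyrosine of alpha-tubulin, had 1.20 and 1.53, at a mean of 12.9 counts in CAMA-1. VASH2 passed the filter on low counts through its treated libraries, so its values are a description. Of 14 in ZR-75-1, 1 and 0 rose and 3 and 1 fell, also near or under those shares. Gamma-tubulin ring and augmin genes, which seed spindle microtubules, fell in 11 of 19 cases with each drug in CAMA-1 and in 11 of 18 with abemaciclib in ZR-75-1, with 1, 1 and 0 rising, where 20.1%, 18.7% and 18.3% of all genes fell. The list had medians of -0.60, -0.58, -0.43 and -0.23, the last with palbociclib in ZR-75-1. The augmin subunit HAUS1 fell with abemaciclib in both lines (-1.69 in CAMA-1, adjusted p of 7.87e-05, and -1.38 in ZR-75-1, adjusted p of 4.09e-05). With palbociclib in ZR-75-1 edgeR called 0 of 18, DESeq2 also 0, and 6 had an unadjusted p under 0.05. Of the microtubule-associated proteins, 6 and 5 of 26 rose and 4 and 5 fell in CAMA-1, and 4 and 3 of 27 rose and 10 and 7 fell in ZR-75-1. The CAMA-1 counts are about the shares of all genes, and the falls in ZR-75-1 stand beside shares of 18.3% and 13.4%. STMN1 fell throughout, by a log2 fold change of -1.56, -1.42, -2.37 and -0.97 (adjusted p of 8.60e-21, 1.43e-19, 2.77e-32 and 7.63e-17). MAPT, the gene of tau, rose in all 4 (0.81, 0.75, 0.67 and 0.63, adjusted p of 5.99e-09, 3.29e-08, 1.10e-10 and 1.50e-09). MAP2, which stabilises dendritic microtubules, was higher in treated CAMA-1 cells (2.04 and 1.47), at a mean of 18.3 counts in that line. MAP2 passed the filter on low counts through its treated libraries, so its values are a description, and the counts of rises above include it.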

How the data were processed

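The submitters deposited a table of raw read counts per gene for 18 libraries, 3 for each of 6 groups named by their labels. Per the labels and methods, the authors sequenced QuantSeq 3′ libraries as single reads of 100 bases, trimmed them with BBDuk, aligned them with STAR 2.7.5b to hg38 and counted them with featureCounts 2.0.1 on GENCODE release 35. The labels and the methods name opposite strand versions of the kit, and strand, multiple alignments and molecular identifiers in the counting are not given in the sources used here. The study tested with DESeq2.

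The counts were used as deposited. For each line, its 9 libraries were fitted in edgeR 4.0.16 (R 4.3.3) after filterByExpr and TMM scaling, with a quasi-likelihood F test and Benjamini-Hochberg adjustment over all genes tested, at a threshold of 0.05. The difference between lines was an interaction in 1 fit of 18 libraries, and CPM used the TMM totals of that fit. Intervals of log2 values are the estimate with 1.96 SE on either side. Where all DMSO counts of TUBA3E were 0, the lower bound of its fold took 3 counts per library as the DMSO level. Other counts of 0 were kept as they were, and intervals on counts cover counting error only. Replicates are stated to be independent biological ones. Positions and transcripts are from GENCODE release 44 on hg38, promoters from RefSeq, and similar ends from BLAST+ 2.17.0+. The code was tested on simulated data.

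The members, the gene lists and the rules were chosen with earlier results of these data known. Named were all members and the tubulin family, up to 2 genes with the largest rise and up to 2 with the largest fall per list and drug comparison at a mean of at least 10 counts, the 5 genes most like TUBA1B, TUBB and TUBA3E, and genes next to TUBA3E or at least 95% identical to a member at the 3′ end. The coding ends of some alpha genes are not reported here. TUBBP1, TTC5, SCAPER and MZT2A, and values of a listed gene in a further comparison, were added after they were seen. Alternatives were RLE and upper-quartile scaling, DESeq2 1.42.0, no filter on low counts, no mitochondrial genes, each library left out, replicate number as a block, all libraries in 1 fit, and near copies summed.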

Additional observations from a re-analysis of the deposited data

Results flagged for a closer look

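The response to a drug differed between CAMA-1 and ZR-75-1 in these members by the test of the difference itself, given as the ZR-75-1 response less the CAMA-1 response on the log2 scale. With abemaciclib the difference was -4.27 in TUBA1A, -0.94 in TUBB, -0.86 in TUBA1C, -0.80 in TUBB4B, -0.52 in TUBB2A and -0.45 in TUBA1B. With palbociclib it was -3.80 in TUBA1A, -0.54 in TUBB2A, -0.52 in TUBB, -0.34 in TUBA1C and 0.31 in TUBA1B. TUBA1A was near the floor in CAMA-1 DMSO, at 9 to 16 counts, so the sizes of its differences rest on few reads in that group. In ZR-75-1 it held 538 to 705 counts in DMSO. The cause of these differences was not tested.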

How the results depend on the processing

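The number of members called stayed within 1.5 times its value in every comparison under all alternatives other than summing, for which it was not counted. Leaving out each library gave lowest and highest counts of 4 and 4 for CAMA-1 under abemaciclib, 5 and 6 for CAMA-1 under palbociclib, 0 and 0 for the drugs compared in CAMA-1, 6 and 7 for ZR-75-1 under abemaciclib, 5 and 6 for ZR-75-1 under palbociclib, 5 and 5 for the drugs compared in ZR-75-1, 5 and 6 between lines with abemaciclib and 4 and 5 between lines with palbociclib. Of 54 log2 fold changes of members, 6 changed their side of the threshold under at least 1 alternative other than summing, in 19 of 772 values, and none changed sign when called. These were TUBB with palbociclib in CAMA-1, TUBB6 with palbociclib and TUBA1A with abemaciclib in ZR-75-1, and the differences between lines in TUBB2A with both drugs and in TUBA1C with palbociclib. TUBA1A with abemaciclib in ZR-75-1 passed only without DMSO replicate 3 (-0.22, adjusted p of 0.048).

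With TUBA1A, TUBA1B and TUBA1C summed, the log2 fold change that stands for TUBA1A in CAMA-1 turned from positive to -0.66 with abemaciclib and -0.69 with palbociclib, and the palbociclib difference between lines, negative for TUBA1A and TUBA1C, became 0.092. This follows from the sum, of which TUBA1B holds most. In CAMA-1 TUBA3E entered a fit of that line only with no filter, where its log2 fold changes were 2.94 and 2.85 (adjusted p of 0.0325 and 0.0428). The lower bound of its fold in ZR-75-1 ranged from 5.02 to 5.38 with abemaciclib and from 4.68 to 5.00 with palbociclib when single libraries were left out.

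Replicate numbers are shared between groups. The deviations of same-numbered libraries correlated at -0.08 to 0.01 in CAMA-1 and -0.03 to 0.01 in ZR-75-1. For libraries of other numbers the values were -0.03 to 0.05 and -0.02 to 0.03. No pairing by number was seen, but with 3 libraries per group this check cannot exclude it. With the replicate block, 4, 6 and 0 members were called in CAMA-1, 6, 6 and 5 in ZR-75-1 and 6 and 5 between lines, with no count moved. At this depth TUBB2B and, in CAMA-1, TUBB6 were under the filter, and TUBB3 had no count to test.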
